A study of Mus musculus with 46 samples.

Results

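Liver RNA from sham-operated female mice (ShamF) was compared with liver RNA from sham-operated male mice (ShamM) at 18 months of age. The comparison covered every autosomal gene whose group mean reached 1 in ShamF or ShamM. Of the 18531 genes in the 18-month expression table, 11243 reached that mean, 324 of them lay on the X, Y or mitochondrial chromosome and 42 had no position, which left 10877 genes. The size of the difference between the groups was not used to choose them, but a gene could pass through 1 group alone. Earlier results of these data were known when they were chosen.

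All mice were wild-type C57BL6 animals kept on normal chow and water in a pathogen-free facility, and surgery was done at 8 weeks of age in every group. The sex comparison rests on 3 ShamF and 3 ShamM libraries, and a group of 5 libraries from castrated males (CasM) of the same age was set beside them. ShamF mice had a sham procedure and their ovaries were not stated to be removed, so both sham groups kept their gonads as far as the labels say. Poly(A)-selected RNA was sequenced as 150-base read pairs. The series also holds kidney libraries and libraries from 12-week-old mice, 46 libraries in all, and metabolite tables.

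The liver is among the most sex-biased organs of the mouse. Pituitary growth hormone reaches it in pulses in males and more evenly in females, and the pattern is read through the growth hormone receptor, the kinase JAK2 and the transcription factor STAT5b. Sex-biased repressors such as BCL6, which is higher in males, and CUX2, which is restricted to females, act downstream. The genes known to follow this pattern encode cytochrome P450 enzymes, sulfotransferases, carriers of small molecules and, in males, the major urinary proteins, which carry pheromones in urine.

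The deposited expression table holds 1 mean per group, in a normalised unit that its header does not name, so levels are given below as group means and no spread between libraries could be computed. Depth per library is unknown. Differences are given as the centred log2 difference, log2(mean + 1) in ShamF minus log2(mean + 1) in ShamM, less the median difference of 0.14 over expressed genes. A gene was called where its adjusted p was under 0.05 in the authors' deposited table of DESeq2 comparisons. Standard errors are those implied by the fold and p of that table. Where nothing says that libraries of a group came from separate animals, these p-values measure the spread between libraries. Tissue of origin matched its label: the hepatocyte marker list had 20 of 20 members expressed, with a summed level of 155219 in ShamM, 161539 in ShamF and 183803 in CasM. The Y-linked genes Eif2s3y, Ddx3y, Uty and Kdm5d had means of 3.60 to 37.3 in ShamM, 3.95 to 38.8 in CasM and 0.01 to 0.053 in ShamF, where 0.01 is the lowest value in the table and stands for a gene listed at 0.

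Between the sexes, 824 of 10877 genes (7.58%) were called higher in ShamF and 596 (5.48%) were called lower, 13.1% in all. The sets differed in level. The median gene called higher in ShamF had a larger group mean of 4.76 and a centred difference of 0.90, with a median implied standard error of 0.358. The median gene called lower had a larger mean of 27.4 and a difference of −0.61, with a median implied standard error of 0.182. A change of 2-fold or more on the centred scale was seen for 426 genes (3.92%) toward ShamF and 167 genes (1.54%) toward ShamM. The balance turned with the level: among genes whose larger mean reached 5, 396 were called higher and 524 lower. At the threshold of 1, Pfkfb4 (0.353 in ShamM, 1 in ShamF) and Sp5 (1 and 0.85) were just included, and Ncam2 (0.997 and 0.223) and Brca1 (0.533 and 0.997) were just left out.

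**Figure D1:**
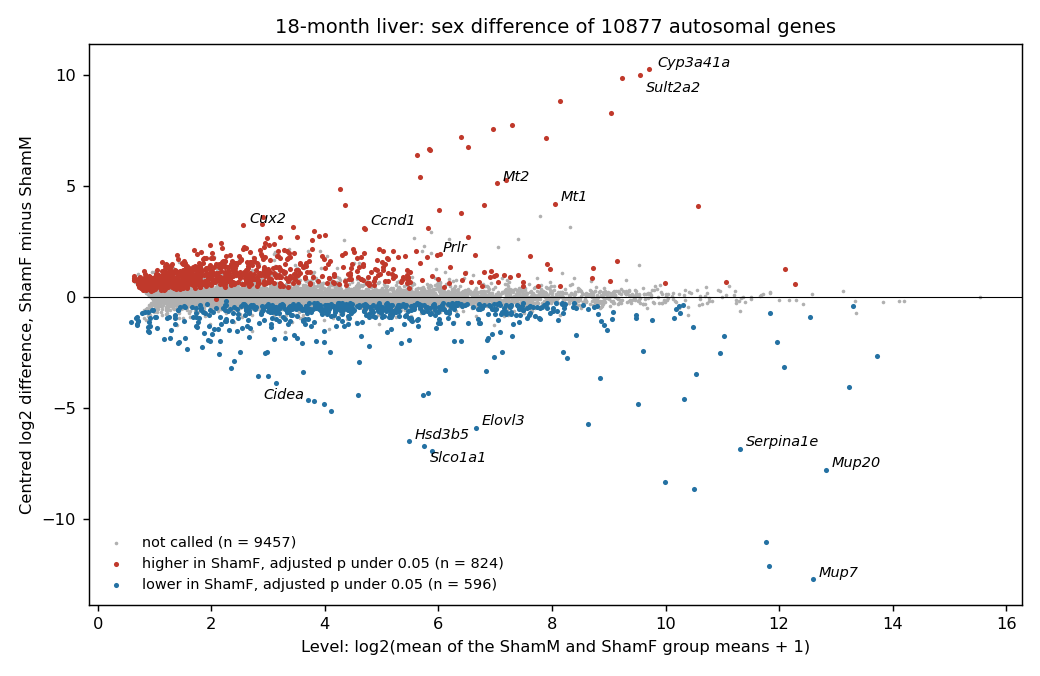
Each point is 1 of 10877 autosomal genes in 18-month liver. The x axis is log2 of the average of the 2 group means plus 1, the y axis is the centred log2 difference between ShamF and ShamM, and colour marks the 824 genes called higher and the 596 called lower in ShamF. Cyp3a41a and Sult2a2 lie at about 10, and Mup7 and Mup14 lie below −12.

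The regulators of the growth hormone pathway were taken first. Of 38 expressed genes on this list, 8 rose and 1 fell in ShamF, beside 7.58% and 5.48% of all genes. The list median was 0.24 against −0.00062 over all genes. Cux2, the female-restricted repressor, had a mean of 0.047 in ShamM, 9.79 in ShamF and 6.92 in CasM, and its adjusted DESeq2 p in the authors' deposited table was 2.44e-14. Bcl6, the male-biased repressor, had 10.2 in ShamM, 4.35 in ShamF and 7.55 in CasM, and it fell by 1.20 on the centred log2 scale. The order of the groups was thus reversed between these 2 genes, with castrated males between the sham groups for both. Prlr, the prolactin receptor, stood at 23.6 in ShamM and 99.5 in ShamF (difference 1.89). Esr1, which encodes oestrogen receptor alpha, stood at 3.37 and 10.7 (difference 1.28). Socs2, a feedback inhibitor of growth hormone signalling, had 2.35 in ShamM, 8.18 in ShamF and 12.8 in CasM. Trim24, Tox, Socs3 and Igfbp3 were the other members called higher. Igf1 and Ghr, the main endocrine product of this pathway and its receptor, did not pass the test, with differences of 0.10 and −0.25.

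Lists of genes known to be sex-biased in mouse liver came next. Of 49 female-biased genes, 38 rose in ShamF and none fell, with a median of 2.45. Of these 49, 16 reached the mean of 1 through ShamF alone, and 22 of the 33 that reached it in ShamM rose. Of 52 male-biased genes, 44 fell in ShamF and 1, Spp1, rose, with a median of −2.51. Of these 52, 13 reached the mean of 1 through ShamM alone. The lists were drawn up from general knowledge of mouse liver, and earlier results of this series were known when they were written, so they are no independent evidence of direction. Lpl, Cyp17a1 and Nipal1 had differences above 1.7 and did not pass the test, and Chrna4 had −1.56 and did not pass.

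The P450 enzymes, which oxidise steroids, fatty acids and drugs, gave the largest rises. In the Cyp3a family 4 of 8 members rose and 1, Cyp3a25, fell. Cyp3a41a had a mean of 0.227 in ShamM and 1662 in ShamF, with 438 in CasM, and its authors' log2 fold was 12.83 with an implied standard error of 1.15 in the authors' deposited table of DESeq2 results. Cyp3a41b went from 0.297 to 313, Cyp3a16 from 0.0233 to 167 and Cyp3a44 from 0.0433 to 113 between ShamM and ShamF. All 4 had means of 0.297 or less in ShamM and so reached the mean of 1 through ShamF alone. Of the 4 other members, which reached it in ShamM, none rose and 1 fell. Cyp3a11, the major Cyp3a enzyme of male and female liver, had a difference of −0.82 and did not pass (adjusted p 0.0518 in the authors' deposited table of DESeq2 results). The 7 expressed members that lie together span chr5:145436309-146114978 of GRCm38. Cyp3a41a and Cyp3a41b are near copies, and 82.9% of the 150-base windows of the Cyp3a41a transcript were found in another gene, so the split of reads between these 2 genes is uncertain.

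Of 35 expressed Cyp2 genes, 11 rose and 7 fell. Cyp2a4, which hydroxylates testosterone, had 1.98 in ShamM, 1047 in ShamF and 310 in CasM. Cyp2b13 had 0.527, 182 and 290 in the same order, and Cyp2b9 had 9.88, 211 and 205. In the Cyp2c cluster, Cyp2c69 had 1.95, 474 and 346 and Cyp2c40 had 5.57, 283 and 265. The CasM mean was thus close to that of ShamF for Cyp2b9 and Cyp2c40, above it for Cyp2b13 and below it for Cyp2a4, and none of these 5 genes passed the test between CasM and ShamF. In the other direction, Cyp2d9, a steroid hydroxylase of male liver, had 782 in ShamM, 15.4 in ShamF and 74.4 in CasM. Cyp2u1 (6.47 and 0.363), Cyp2f2 (662 and 307) and Cyp2j9 (10.7 and 4.01) also fell in ShamF. The clusters did not move as blocks: 5 of 11 expressed genes of the Cyp2c cluster at chr19:39006940-40113955 rose and 1, Cyp2c67, fell. At chr7:25897658-27133660, which holds the Cyp2a, Cyp2b, Cyp2f and Cyp2g genes, 6 of 9 rose and 1, Cyp2f2, fell.

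Sulfotransferases, which add sulfate to bile acids, steroids and phenols, had many rises. The list, which also holds the genes for the sulfate donor, had 17 members, 11 of which rose in ShamF and 1 of which fell, but 7 of the 17 reached the mean of 1 through ShamF alone. Sult2a2 had a mean of 0.313 in ShamM, 1500 in ShamF and 1015 in CasM, and Sult2a1 had 0.17, 1207 and 394. Sult2a3 was listed at 0 in ShamM and had 112 in ShamF and 48.3 in CasM. Sult2a5 had 0.0367, 96.5 and 68.9, and Sult3a1, which acts on amines, had 0.147, 36.5 and 70.8. Sult1e1, the oestrogen sulfotransferase, had 0.287 in ShamM, 6.74 in ShamF and only 0.356 in CasM. Papss2, which makes the sulfate donor, rose from 64.0 to 156. The single member that fell was Sult2a8 (515 and 170). It lies in the same cluster, chr7:13623967-14493023, as the 5 Sult2a genes that rose.

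Other enzymes and carriers followed. The flavin monooxygenases Fmo2 (3.62 in ShamM, 21.7 in ShamF and 23.8 in CasM) and Fmo1 (80.6, 177 and 164) rose. Hao2, a peroxisomal hydroxyacid oxidase, had 0.997, 37.95 and 42.4. A1bg, a secreted plasma protein, had 0.123, 562 and 157. Of 25 organic ion and drug carriers 6 rose and 5 fell, beside 7.58% and 5.48% of all genes. The neighbouring genes Slc22a26 (1.11 and 99.6) and Slc22a27 (4.11 and 46.3) rose in ShamF, and Slc22a28 (15.5 and 0.24) and Slc22a30 (122 and 59.2) of the same cluster at chr19:7780094-8405111 fell. Slco1a1, an organic anion carrier, had 104.98 in ShamM, 0.12 in ShamF and 0.458 in CasM, while its paralogue Slco1a4 had 13.3, 53.05 and 36.2.

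Metal and iron genes formed another group with rises. Of 24 genes on the iron and metallothionein list, 8 rose and 1, Slc11a2, fell, beside 7.58% and 5.48% of all genes. The list median was 0.22. The metallothioneins Mt1 (23.9 in ShamM, 508 in ShamF, 563 in CasM) and Mt2 (5.62, 254 and 234) bind zinc and copper. The means of ShamF and CasM were near each other for both. Hamp, which encodes hepcidin, the hormone that limits iron release, had 2404, 6359 and 6453, and its paralogue Hamp2 had 149, 2883 and 1783. Slc40a1, the iron exporter that hepcidin removes, went from 31.9 in ShamM to 56.6 in ShamF, and Id1, a target of the BMP signal that drives hepcidin, from 6.77 to 25.2. The metal carriers named here differed among themselves, since Slc39a4 rose from 12.6 to 32.9 and Slc11a2 fell from 11.1 to 7.30.

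**Figure D2:**
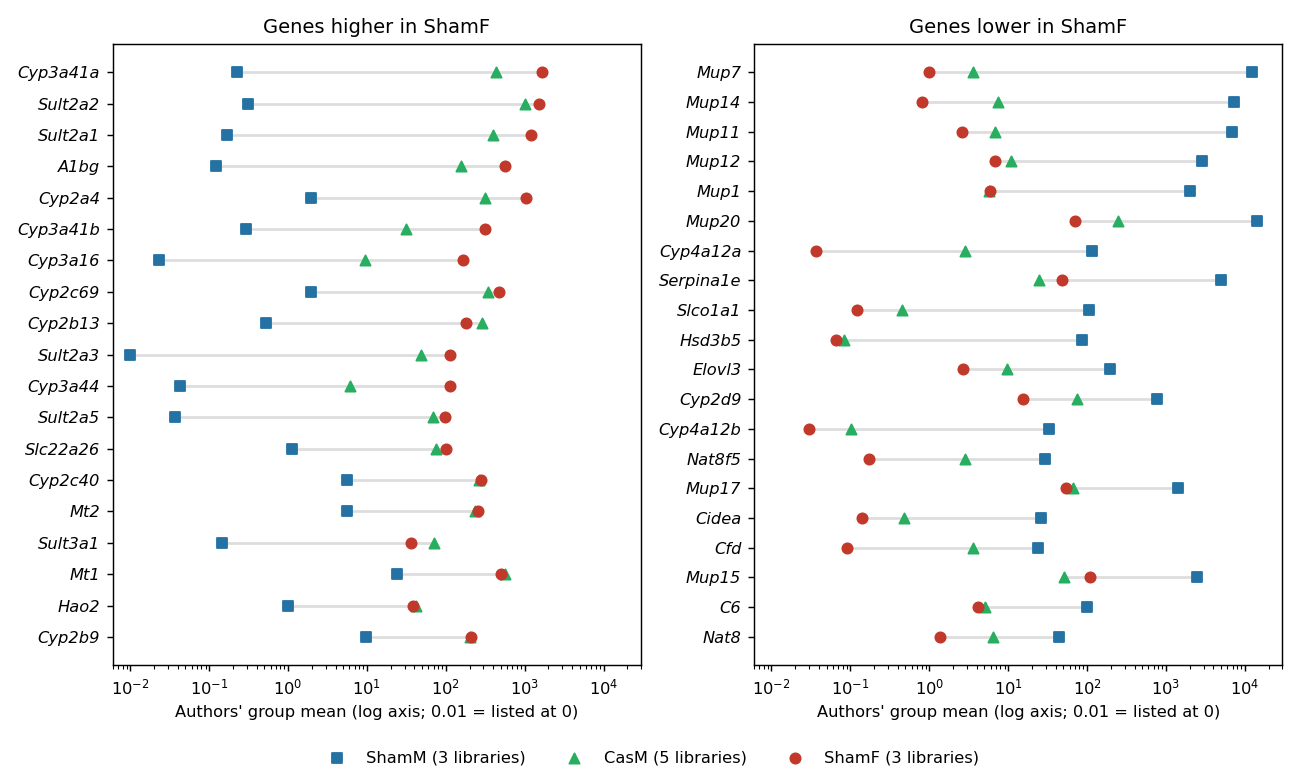
Group means (log axis, authors' normalised unit, 0.01 is listed at 0) of 19 of the 20 genes with the largest rises and the 20 with the largest falls in ShamF, for ShamM, CasM and ShamF. Cyp3a44 (6.06) and Cyp3a16 (9.46) are among the rises with a low CasM mean.

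The major urinary proteins gave the largest falls. All 20 expressed Mup genes had lower means in ShamF, 19 of them were called, and the median difference was −3.86. Mup7 had a mean of 12404 in ShamM, 1.003 in ShamF and 3.63 in CasM, Mup14 had 7252, 0.803 and 7.35, and Mup20, the male pheromone darcin, had 14460, 70.3 and 250. Other members kept a sizeable level in females: Mup22 had 23013 in ShamM and 4025 in ShamF, Mup3 had 7712 and 958, and Mup10 had 613 and 318. Mup13 was the member that did not pass (1.57 and 0.783). Of the 20 members, 4 reached the mean of 1 through ShamM alone. Together the 22 Mup genes in the table made up 13.5% of the ShamM column total, 1.82% in CasM and 1.02% in ShamF. The family lies at chr4:60003481-62150841, and reads are hard to assign within it: the share of 150-base windows found in another gene was 72.9% for Mup7, 82.5% for Mup1 and 90.7% for Mup15, but 31.1% for Mup20. Levels of single Mup genes are therefore uncertain. Of the 40 genes with the largest differences in either direction, 8 had over 50% of such windows in another gene and 18 had none.

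Steroid-converting enzymes fell in ShamF where they changed: 8 of 25 were lower, none was higher, and the median was −0.38. Hsd3b5, a ketosteroid reductase of male liver, had 87.0 in ShamM, 0.0667 in ShamF and 0.082 in CasM. Cyp7b1, an oxysterol hydroxylase, had 123, 12.8 and 16.8, and Srd5a1, a steroid reductase, had 43.1, 9.65 and 16.8. Cyp17a1 had 17.4 and 85.5 in ShamM and ShamF and did not pass (adjusted p 0.103 in the authors' deposited table of DESeq2 results). Of 17 UDP-glucuronosyltransferases, which conjugate steroids and bilirubin, 7 fell and 2 rose. Ugt2b1 went from 237 to 75.9, whereas Ugt1a5 went from 38.02 to 161. The fatty acid hydroxylases Cyp4a12a (116 in ShamM, 0.0367 in ShamF, 2.80 in CasM) and Cyp4a12b (32.5, 0.03 and 0.102) were the largest falls among 14 Cyp4 genes, of which 4 fell and 1, Cyp4f16, rose. Gstp1 (3327 and 638) and Gstp2 (41.2 and 5.15), glutathione transferases, fell as well.

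Secreted proteins of the serpin and complement lists were split. Of 25 serpins, 6 rose and 6 fell. Serpina1e, an alpha-1-antitrypsin paralogue, had 5057 in ShamM, 47.6 in ShamF and 24.9 in CasM, and Serpina3k had 6271, 1671 and 1734. Serpina6, which encodes the corticosteroid-binding globulin, rose from 227 to 621. Of 45 complement and coagulation genes, 9 fell and 4 rose, beside 5.48% and 7.58% of all genes. The falls included 4 of the terminal attack complex: C6 (99.4, 4.18 and 5.14 in ShamM, ShamF and CasM), C8a (231, 45.4 and 86.6), C8b (131, 35.6 and 35.7) and C9 (227, 115 and 92.2). Hc, the gene for C5, fell from 169 to 137. C3 (1549 and 2747) and Mbl2 (369 and 666) rose. C1qa and C1qb, which macrophages make, rose too and are described below with the macrophage genes.

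Cfd, or adipsin, a complement protease abundant in fat, had 24.1 in ShamM, 0.09 in ShamF and 3.59 in CasM. The list of neighbouring tissue markers, with genes of pancreas, kidney, muscle and fat, had 5 expressed members. Of these, Cfd, Car3 (3170 and 1030) and Cela1 (12.2 and 2.90) fell, and Fabp4 (9.87 and 12.0) and Kap (0.753 and 1.103) did not pass. The summed level of the 5 was 3216 in ShamM and 1046 in ShamF, most of it Car3. Adipoq, Pnlip, Prss2, Cpa1 and Ckm, which define fat, pancreas and muscle, were listed at 0 in both sham groups.

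Lipid genes changed in small numbers, to be set beside the 7.58% of all genes called higher and the 5.48% called lower. Of 27 genes for fatty acid and triglyceride synthesis, 5 fell and 1, Scd2, rose, with a median of −0.34. Elovl3, an elongase of long-chain fatty acids, had 197 in ShamM, 2.68 in ShamF and 9.64 in CasM. Srebf1, the transcription factor of lipogenesis, fell from 132 to 73.1, Gpam, the first enzyme of triglyceride synthesis, from 102 to 49.2, and Mogat1 from 4.93 to 1.39. On the lipid droplet list of 31 genes, 4 fell and 3 rose. Cidea had 26.03 in ShamM, 0.14 in ShamF and 0.474 in CasM, and Cidec had 21.3, 1.33 and 10.3. Both encode proteins that fuse lipid droplets. Of 38 genes for fatty acid oxidation and ketone synthesis, 5 rose and 2 fell, led by the thioesterase Acot3 (9.62, 102 and 105.5) and by Ucp2 (10.5, 52.3 and 24.4).

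Of 31 bile acid genes 4 rose and 3 fell, against 7.58% and 5.48% of all genes, and nothing is read from these counts. Cyp7a1, the rate-limiting enzyme of bile acid synthesis, had 16.1 in ShamM, 79.2 in ShamF and 18.98 in CasM, so that castrated males were near sham males. Scp2, a peroxisomal sterol carrier and thiolase, fell from 1994 to 871. The efflux pumps Abcc4 (0.577 and 4.66) and Abcb1a (1.01 and 4.14) rose. On the cholesterol list 3 of 25 rose and none fell, with a median of 0.33, and nothing is read from these counts either. Idi1, an enzyme of the pathway (98.5 and 206), and Srebf2, its transcription factor (12.2 and 21.4), were among the rises.

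Several lists of genes that mark cells other than hepatocytes held many rises and few or no falls. In whole tissue, more cells of a type and more RNA per cell cannot be told apart. Of 20 Kupffer cell and macrophage markers, 9 rose, none fell, and the median was 1.68. Of these 20, 3 reached the mean of 1 through ShamF alone, and 8 of the 17 that reached it in ShamM rose. The summed level of the 20 was 212 in ShamM, 906 in ShamF and 317 in CasM. Clec4f, a lectin of Kupffer cells, had 15.4, 49.3 and 25.9 in ShamM, ShamF and CasM, Cd5l had 15.4, 61.2 and 22.4, C1qa had 21.8, 87.0 and 34.3, and Cd68 had 3.09, 17.0 and 5.70. Lyz2 (41.9 and 222), Ctss (15.5 and 90.0), C1qc (21.2 and 94.4) and Csf1r (5.62 and 25.2) had differences of the same size and did not pass, with implied standard errors of 0.79 to 0.96. No member of the list was listed at 0.

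Markers of lipid-associated macrophages and monocytes, a state found around lipid-laden or dying hepatocytes, had summed levels of 136 in ShamM, 393 in ShamF and 185 in CasM. Of 18 in the table, 16 reached the mean, 7 of them through ShamF alone, and 5 of the 9 that reached it in ShamM rose. Mmp12, a macrophage elastase, had 0.25, 12.6 and 0.79. Gpnmb had 0.203, 5.72 and 0.388, and Trem2, a lipid receptor of these cells, had 0.507, 6.66 and 1.20. For these 3 genes the implied standard errors of the authors' log2 folds were 0.91 to 1.54, several times the 0.20 of the fibroblast gene Dcn, and the group means do not show whether the 3 ShamF libraries share the level. Spp1, or osteopontin, which cholangiocytes also make, had 37.2, 79.0 and 75.3.

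Of 18 T cell and natural killer cell markers in the table, 10 reached the mean, 9 of them through ShamF alone. Nothing is therefore read from the share of this list that was called. The summed levels of the 10 were 5.21 in ShamM, 47.2 in ShamF and 24.4 in CasM. Ccl5, a chemokine of these cells, had 2.65 and 27.4, and Cd8a had 0.09 and 1.47. The antigen presentation list had 10 of 22 higher and a median of 0.76. H2-Aa, a class II chain, had 21.6 in ShamM, 161 in ShamF and 68.2 in CasM, and Cd74 (42.5, 293 and 115) had a like difference and did not pass. Of the interferon-response genes 8 of 35 rose and 1, Ifi27, fell, beside 7.58% and 5.48% of all genes. Gbp2 (1.43 and 11.8) led the rises. No neutrophil marker (4 expressed) and no B cell marker (6 expressed) was called by DESeq2 at the adjusted threshold, though 2 neutrophil markers and 2 B cell markers had an unadjusted p under 0.05.

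Of 17 markers of stellate cells and fibroblasts, 14 rose and none fell, with a median of 0.79. The summed levels of the 17 were 199 in ShamM, 438 in ShamF and 233 in CasM. Of these 17, 3 reached the mean of 1 through ShamF alone, and 11 of the 14 that reached it in ShamM rose. Dcn had 88.9, 195 and 97.7, Lum had 3.34, 15.5 and 3.91, and Colec11 had 26.5, 58.4 and 31.4. The retinoid-storing enzyme gene Lrat, which marks resting stellate cells, had 3.31 and 6.86. Of 16 collagen genes 9 rose and 1 fell, with a median of 1.07. Of these 16, 2 reached the mean of 1 through ShamF alone, and 7 of the 14 that reached it in ShamM rose. Col1a1 had 1.21 in ShamM, 12.3 in ShamF and 2.52 in CasM, Col1a2 had 2.40, 15.2 and 3.73, and Col6a1 had 2.42, 7.79 and 3.53. Col3a1 (4.38 and 33.9) did not pass, and Col5a3 fell from 18.1 to 4.08. Endothelial markers rose in 12 of 19 cases, none fell, and the median was 0.70, with Clec4g at 23.3 and 48.2 and Lyve1 at 1.90 and 6.42. All 72 members of the macrophage, lipid-associated macrophage, stellate and endothelial lists had a lower mean in CasM than in ShamF, though 14 of them reached the mean of 1 through ShamF alone. The same share over all genes was not computed, and markers of 1 cell type are not separate observations, so nothing is read from the count of 72. Of the 72, 5 were called lower in CasM than in ShamF in the authors' deposited table of DESeq2 results, beside 0.855% of all genes. Of these 5, 4 were stellate genes and 1 was endothelial. Without the genes of the marker, collagen, antigen and interferon lists, 744 of the 824 genes called higher and 594 of the 596 called lower were left. How far the other called genes move with these cells was not tested.

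**Figure D3:**
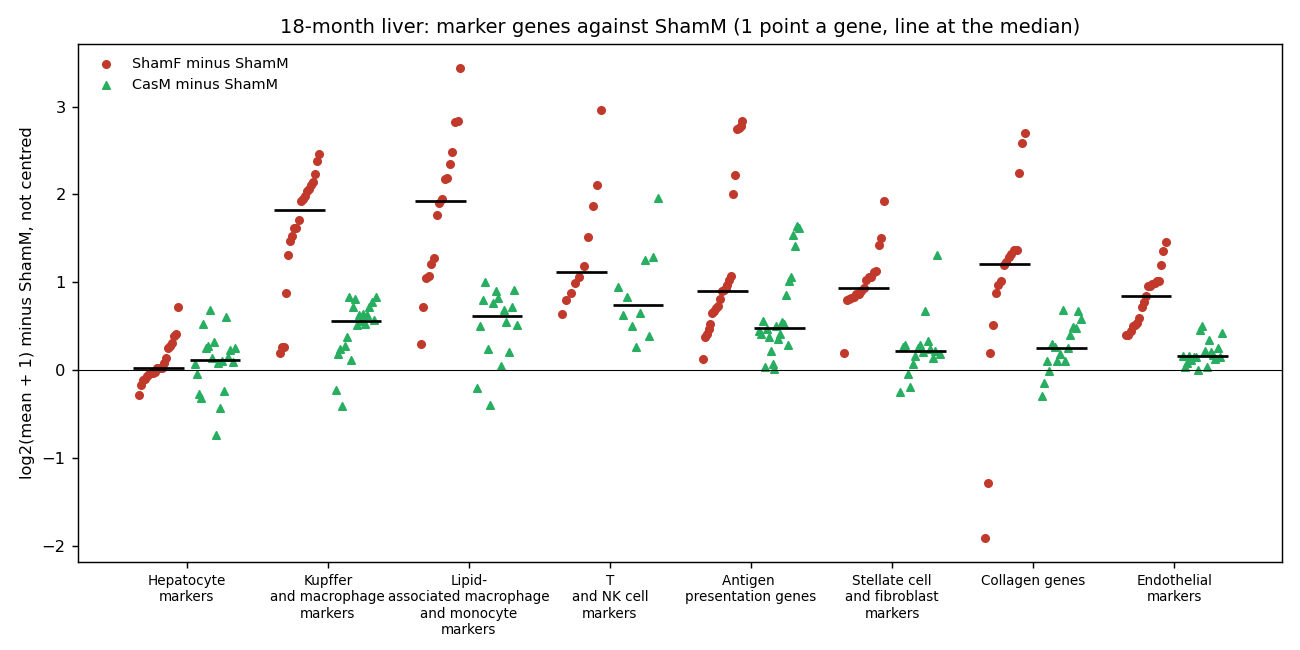
Each point is 1 marker gene of 18-month liver. The y axis is log2(mean + 1) minus the ShamM value, not centred, for ShamF (red circles) and CasM (green triangles), and lines are medians. Median differences from ShamM were 1.82 in ShamF and 0.56 in CasM for macrophage markers and 0.93 and 0.22 for stellate markers. For hepatocyte markers they were 0.02 and 0.12, and the first turns to −0.12 once centred.

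Acute phase genes rose in 6 of 24 cases and none fell, beside 7.58% and 5.48% of all genes, and their median was 0.57. Of the 24, 1 reached the mean of 1 through ShamF alone, and 5 of the 23 that reached it in ShamM rose. Lcn2 had 6.32 in ShamM, 120 in ShamF and 49.6 in CasM, and Orm3 had 2.66, 22.8 and 18.4. Saa1 (57.5 and 579) and Saa2 (28.3 and 411) did not pass, and their implied standard errors were 1.14 and 1.28. The macrophage gene Cd14 is on this list as well. The share of these rises that moves with the macrophage markers was not tested. Of 30 cell cycle genes in the table, 19 reached the mean, 8 of them through ShamF alone, and 2 of the 11 that reached it in ShamM rose. Ccnd1, or cyclin D1, which is needed to leave the resting state, had 3.87, 46.1 and 9.27, whereas the mitotic genes Top2a (0.113 and 1.19) and Ccnb1 (0.0767 and 1.05) were at the lower end of the scale in ShamF too. Cdkn2c, an inhibitor of the kinases that cyclin D1 activates, rose from 1.83 to 10.8. It was on the list of 20 senescence and p53 genes, of which 4 rose, beside 7.58% of all genes.

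Clock and ribosomal protein genes held no call, where 7.58% of all genes were called higher and 5.48% lower. None of 19 core clock genes and none of 40 cytosolic ribosomal protein genes was called by DESeq2. At an unadjusted p under 0.05 the counts were 1 and 0. Ribosomal protein genes had a median of 0.16 with 38 of 40 differences above 0. Among 32 oxidative phosphorylation genes 3 fell, with a median of −0.17 and 31 of 32 differences below 0, and 12 had an unadjusted p under 0.05, all lower. Of 20 general hepatocyte markers Ahsg rose (3742 and 6173) and Ttr fell (11119 and 9164), and Alb had a difference of 0.0029 and did not pass. Of 20 periportal genes 3 fell (Cyp2f2, Cdh1 and G6pc) and 5 were lower at an unadjusted p under 0.05, and of 19 pericentral genes 1 rose (Lect2). Nothing is read from the numbers of adjusted calls on the oxidative phosphorylation, hepatocyte, periportal and pericentral lists.

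**Figure D4:**
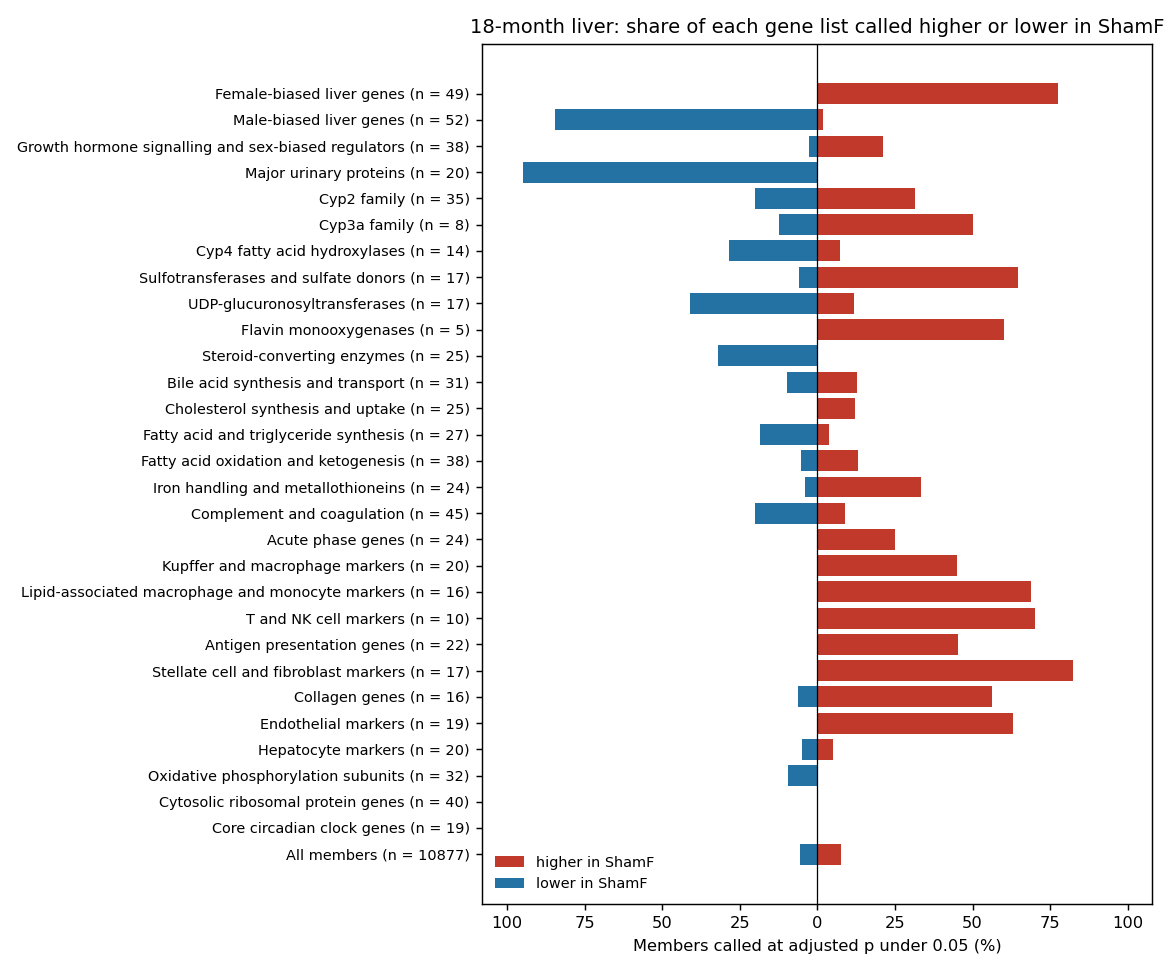
Bars give the percentage of expressed members of each gene list called higher (right, red) or lower (left, blue) in ShamF at an adjusted p under 0.05. All 10877 genes are at the bottom, with 7.58% higher and 5.48% lower. The lists of stellate (14 of 17) and female-biased genes (38 of 49) extend farthest right, and the Mup list (19 of 20) farthest left. The T cell bar rests on 10 members, 9 of which reached the mean through ShamF alone, so nothing is read from its length. Among the other lists, 16 female-biased, 7 lipid-associated macrophage, 7 sulfotransferase, 4 Cyp3a, 3 Kupffer and macrophage, 3 stellate and 2 collagen members did so too. Of the male-biased members 13, and of the Mup members 4, reached it through ShamM alone.

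Castrated males were compared with each sham group in the authors' deposited table of DESeq2 results, and these comparisons share libraries with the sex comparison. Against ShamF, 76 of 10876 genes (0.699%) were called higher in CasM and 93 (0.855%) lower. Against ShamM, 158 (1.45%) were called higher and 146 (1.34%) lower. All 20 of the genes with the largest rises in ShamF also differed between CasM and ShamM, and 2 of them, Sult2a1 and Cyp3a44, differed between CasM and ShamF. Of the 20 genes with the largest falls, 19 differed between CasM and ShamM (all but Nat8f5), and 7 differed between CasM and ShamF: Mup14, Mup20, Cyp4a12a, Cyp2d9, Nat8f5, Cfd and Nat8. On the log2(mean + 1) scale CasM was nearer to ShamF than to ShamM for all 20 falls and for 18 of the 20 rises. On the linear scale CasM lay above the midpoint of the sham means in 11 of the 20 rises and below it in 9, and it lay below it in all 20 falls. Cyp7a1, Lum and Sult1e1 were examples of genes higher in ShamF for which CasM stayed near ShamM. For Ccnd1 the CasM mean lay between those of the sham groups.

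At 12 weeks the deposited liver table again held 1 mean per group, as FPKM, and ages were set side by side without a test. Of the members, 9864 had a 12-week mean of at least 1, and 3.29% of these were 2-fold higher and 2.14% 2-fold lower in ShamF at 12 weeks. Of the 645 such genes called higher at 18 months, 591 were higher and 22.6% were 2-fold higher in ShamF at 12 weeks. Of the 541 called lower, 477 were lower and 24.8% were 2-fold lower. Each of the 40 genes with the largest differences had the same direction at 12 weeks, though 9 of them, Cidea among them, were listed at 0 in 1 of the groups there, where such a value can be a failed estimate. For the lists of other cells, of which fewer members reached the mean at 12 weeks, the medians there were as follows. Lipid-associated macrophage markers had a 12-week median of −0.096 over 8 genes, collagen genes 0.016 over 15, endothelial genes 0.18 over 18 and stellate genes 0.32 over 16, while Kupffer and macrophage markers had 1.25 over 19. T cell and natural killer cell markers had 0.88 over 4, antigen presentation genes 0.58 over 21 and interferon-response genes 0.75 over 35, of which 13 were 2-fold higher. Core clock genes had a 12-week median of 0.81 over 18 genes, with 8 of them 2-fold higher and 2 lower in ShamF. Immediate early and stress genes had 1.11 over 17, with 10 of them 2-fold higher and 1 lower. At 18 months these 2 medians were 0.018 and 0.48. Among single genes, Idi1 had a centred difference of −1.09 at 12 weeks and 0.91 at 18 months, Srebf1 had 1.89 and −0.98, and Slc39a4 had −0.92 and 1.18. Whether these 3 genes moved with the clock or immediate early genes was not tested, and no change with age is read from them.

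The sex difference of the liver was compared with that of the kidney at the same age by a test of the difference between the authors' log2 folds, with Benjamini-Hochberg adjustment over 6550 genes whose larger mean reached 5 in each tissue. The sex difference itself differed between tissues for 657 genes (10%). Of the 708 genes called in liver, 300 differed from kidney. Of the 6550 genes, 22% were called in kidney. There were 290 genes called in both tissues, 244 in the same direction and 46 in opposite directions. Of the 20 largest falls in liver, 8 also fell in kidney, among them Slco1a1 (64.8 in ShamM and 0.02 in ShamF), Cyp4a12a (107 and 3.11) and Cyp2d9 (195 and 32.1). Another, Hsd3b5, was higher in the kidneys of females (0.05 and 0.61, adjusted p 0.0195 in the authors' deposited table of DESeq2 results). Of the 20 largest rises, 2 were also higher in kidney, and 1, Cyp2a4, was lower (687 in ShamM and 276 in ShamF). The labels do not say whether liver and kidney libraries came from the same animals, and the test treats them as independent.

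**Figure D5:**
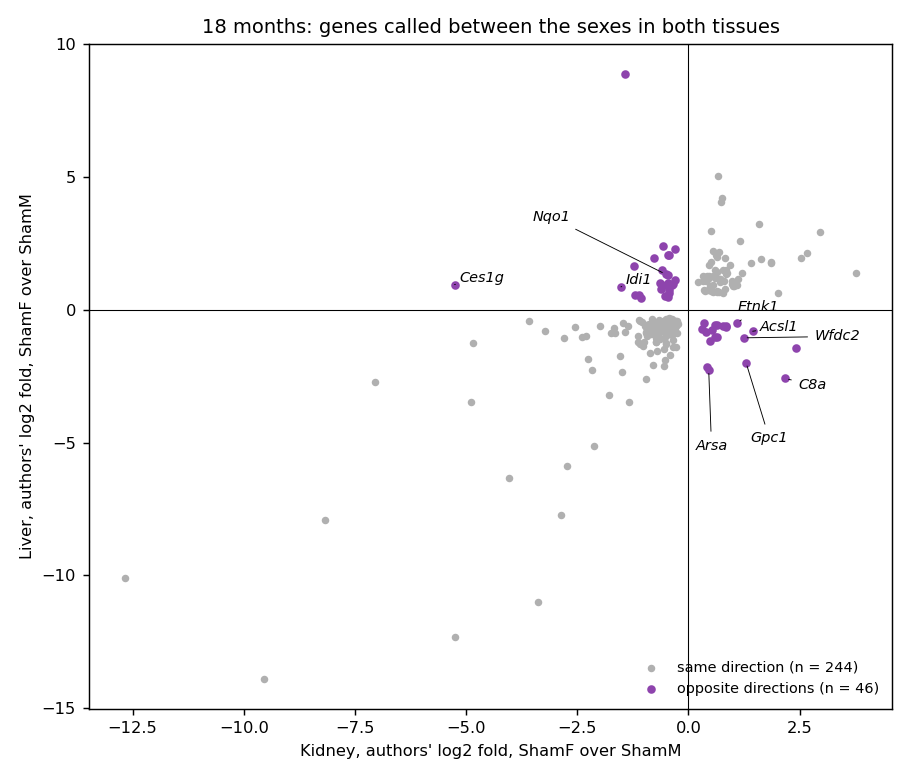
Authors' log2 folds, ShamF over ShamM, in kidney (x axis) and liver (y axis) for the 290 genes called in both tissues at 18 months. Grey points are 244 genes with the same direction, and purple points are 46 genes with opposite directions, of which 9 are named.

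Liver metabolites measured at 18 months were deposited as 1 relative abundance per group, with no spread, number of animals or test. Of 954 compounds, 65 (6.81%) were 2-fold higher and 64 (6.71%) 2-fold lower in ShamF. Taurodeoxycholic acid, a secondary bile acid conjugate, had a relative abundance of 7.58 in ShamM, 22.1 in ShamF and 21.0 in CasM, whereas tauro-b-muricholic acid, a bile acid of rodents, had 0.547, 0.256 and 0.864. Of 13 bile acids 1 was 2-fold higher and 2 were 2-fold lower. Cholesterol sulfate, a sulfotransferase product, had 3.93, 10.4 and 6.53, and cholesterol had 0.306, 0.151 and 0.164. Of 13 carnitine entries 3 were 2-fold lower, among them propionylcarnitine and O-propanoyl-carnitine, which are names of the same compound. Propionylcarnitine had 0.228 in ShamM, 0.0654 in ShamF and 0.208 in CasM, and O-propanoyl-carnitine had 0.307, 0.101 and 0.316.

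Promoter sequences, from 250 bases before to 50 bases after the annotated start, were taken from RefSeq (GRCm38.p6) for the genes with the largest differences, because many of these genes are known to respond to growth hormone. The table held 17 of the 20 rises and 13 of the 20 falls, with 2 promoters for Nat8. A STAT5 core, TTCNNNGAA, read on both strands since it is its own reverse complement, was found in 3 of 17 promoters of the rises (17.6%) and in none of 14 promoters of the falls, against 6.98% of the promoters of all members and 8.3% of all 32851 promoters. The 3 were A1bg, Slc22a26 and Sult3a1, with the motif starting at −84, −141 and −109 from the start site, and it is in capitals here. A1bg is at chr15:60921221-60921520 (minus strand), Slc22a26 at chr19:7802618-7802917 (minus strand) and Sult3a1 at chr10:33857472-33857771 (plus strand). The Sult3a1 sequence lies inside its gene, chr10:33851020-33879475, so its start is an internal one.
A1bg: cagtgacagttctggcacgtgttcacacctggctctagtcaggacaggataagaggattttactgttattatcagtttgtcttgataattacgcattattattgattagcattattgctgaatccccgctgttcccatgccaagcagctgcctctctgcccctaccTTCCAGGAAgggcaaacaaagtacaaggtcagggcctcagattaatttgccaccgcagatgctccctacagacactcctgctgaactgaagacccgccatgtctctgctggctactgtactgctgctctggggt
Slc22a26: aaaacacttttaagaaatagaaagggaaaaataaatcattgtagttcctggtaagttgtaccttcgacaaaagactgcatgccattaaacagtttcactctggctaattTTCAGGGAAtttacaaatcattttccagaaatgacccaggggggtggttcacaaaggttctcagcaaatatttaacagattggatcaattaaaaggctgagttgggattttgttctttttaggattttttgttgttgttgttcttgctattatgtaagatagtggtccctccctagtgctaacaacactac
Sult3a1: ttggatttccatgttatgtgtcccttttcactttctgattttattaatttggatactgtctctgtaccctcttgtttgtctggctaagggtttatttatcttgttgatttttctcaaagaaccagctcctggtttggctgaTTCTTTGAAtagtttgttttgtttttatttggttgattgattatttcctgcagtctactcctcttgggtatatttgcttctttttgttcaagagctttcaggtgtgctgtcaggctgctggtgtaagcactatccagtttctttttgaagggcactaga

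The letters ATTGAT, a core bound by HNF6 and CUX2, were searched on both strands. They were in 9 of 17 promoters of the rises (52.9%) and 6 of 14 of the falls (42.9%), against 4.37% of member promoters. These promoters are not independent, since family members are copies: all 4 Cyp3a genes had it between −75 and −71, and all 5 Mup promoters in the table had it at 2 places, 63 bases apart. The promoters of Cyp3a41a and Cyp3a41b were identical at 292 of 300 positions, which matches their shared transcript windows. TATAAA on the given strand was in 8 of 17 promoters of the rises and none of 14 of the falls, against 4.72% of member promoters. It started between −126 and −122 in the 4 Cyp3a genes, at 10 in Cyp2c69 and at 40 in Cyp2c40. In Sult2a5 it started at −6 and in Cyp2a4 at −28. Most of these are family members, and Mup11 below holds the variant tatataagg, which the search did not count. No contrast between rises and falls is therefore read from these letters. A match describes these letters only. Cyp3a41a (chr5:145720087-145720386, minus strand) and Mup11 (chr4:60662346-60662645, minus strand) are shown as the members of these 2 families with opposite direction, with ATTGAT or its reverse complement in capitals.
Cyp3a41a: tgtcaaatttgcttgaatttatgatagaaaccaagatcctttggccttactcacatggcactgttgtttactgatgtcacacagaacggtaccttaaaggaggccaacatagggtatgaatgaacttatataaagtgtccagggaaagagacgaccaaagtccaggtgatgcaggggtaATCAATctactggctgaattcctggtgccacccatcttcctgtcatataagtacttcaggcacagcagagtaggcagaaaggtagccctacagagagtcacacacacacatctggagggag
Mup11: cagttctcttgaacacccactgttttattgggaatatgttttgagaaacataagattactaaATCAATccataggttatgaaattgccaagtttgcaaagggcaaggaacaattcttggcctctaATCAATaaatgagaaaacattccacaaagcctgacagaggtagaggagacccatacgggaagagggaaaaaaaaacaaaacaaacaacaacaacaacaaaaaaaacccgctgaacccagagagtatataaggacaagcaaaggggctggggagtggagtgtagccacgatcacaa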

How the data were processed

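Poly(A)-selected RNA of 18-month liver was analysed from 3 ShamF, 3 ShamM and 5 CasM libraries. The authors deposited a normalised expression signal as 1 mean per group; neither unit nor depth is named there. HISAT2, SAMtools and Cufflinks with mm10 are named in the submitters' processing notes. A deposited table gives a log2 fold, a p-value and an adjusted p (q-value) per gene and comparison from DESeq2, per the file headers, with its version and design not stated. The deposited folds are the second-named group over the first, as the group means show, and were turned to ShamF minus ShamM. After turning, they had a Pearson r of 0.999 with the log2 ratio of the means where that mean reached 5. The deposited 12-week liver values are FPKM means, per the labels. The deposited metabolite signal is a relative abundance with no stated scale.

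The log2 difference used a pseudocount of 1 and was centred on the median over genes whose larger mean reached 1. The members and gene lists were chosen with earlier results of these data known. Genes were placed by gene ID (18291) or symbol (95) in RefSeq GRCm38.p6, whose chromosome coordinates are those of mm10; 145 had no position. An implied standard error is the size of a log2 fold over the z value that gives its p. Liver and kidney folds were compared by the difference over its combined implied standard error. The calculation was checked on simulated normal folds of independent tissues, which cannot show that the deposited folds meet these assumptions. Genes with full values are the 20 largest rises and 20 largest falls by centred difference among called genes, given a mean of 5 or more in the higher group; examples from the 49 lists were also named. The medians of 15 of 48 lists changed sign under another centring, fold or filter, so no direction is drawn from their medians. Python 3.11.15, pandas 2.3.3, numpy 2.4.6, scipy 1.17.1 and matplotlib 3.10.9 were used. Some items are not reported here.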

Additional observations from a re-analysis of the deposited data

Results flagged for a closer look

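Liver and kidney differed in their response to sex for the following 9 genes, which are among those with the smallest adjusted p of the difference among the 46 genes called in both tissues in opposite directions. Values are the authors' log2 fold, ShamF over ShamM, in liver minus that in kidney, with the implied standard error, from the authors' deposited table of DESeq2 results.

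Ces1g, a carboxylesterase, was higher in the livers of females (104.9 in ShamM, 233 in ShamF) and lower in their kidneys (18.7 and 0.547), a difference of 6.21 ± 0.46. Idi1, of sterol synthesis, had 98.5 and 206 in liver and 66.6 and 25.5 in kidney, a difference of 2.38 ± 0.30. Nqo1, a quinone reductase, had 4.10 and 12.4 in liver and 58.2 and 44.5 in kidney, a difference of 1.85 ± 0.25. These 3 genes were higher in female liver and lower in female kidney.

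The other 6 were lower in female liver and higher in female kidney. C8a, of the complement attack complex, had 231 and 45.4 in liver and 6.16 and 29.8 in kidney, a difference of −4.76 ± 0.62. Gpc1, a cell surface proteoglycan, had 6.92 and 2.04 in liver and 4.02 and 10.8 in kidney (−3.28 ± 0.44). Arsa, a lysosomal sulfatase, had 21.5 and 5.24 in liver and 3.95 and 5.94 in kidney (−2.72 ± 0.34). Wfdc2, a secreted protease inhibitor, had 22.7 and 12.7 in liver and 176 and 452 in kidney (−2.30 ± 0.30). Acsl1, which activates fatty acids, had 298 and 198 in liver and 60.4 and 180 in kidney (−2.25 ± 0.30). Etnk1, an ethanolamine kinase, had 14.5 and 11.8 in liver and 32.8 and 76.7 in kidney (−1.60 ± 0.19).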

How the results depend on the processing

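No paired analysis was possible because the deposited 18-month files used here hold 1 mean per group, and for the same reason no library could be left out in turn and no sample could be checked as an outlier. Of 824 genes called higher in ShamF, 430 had an adjusted p under 0.01, 396 had a mean of at least 5 and 600 had an authors' log2 fold past 1. Of 596 called lower these counts were 357, 524 and 199, so higher calls outnumbered lower ones except at the mean of 5. The 2-fold counts moved with the pseudocount: with 0.1 there were 908 genes higher, with 5 there were 160 higher and 93 lower, against 426 and 167. The liver and kidney comparison gave 1072 differing genes in place of 657 once the mean needed was 1. The other 22 alternative counts were within 1.5 times of the main ones, among them those without near-copy genes (820 higher and 583 lower), an alternative added after the data were seen, as was the one without marker lists. All 40 genes with the largest differences kept their direction under 4 alternatives, and all 9 genes set against kidney kept theirs under 2. The 40 were chosen by the size of the difference and a fold of the same sign. The 9 were chosen by a small adjusted p, and needing a mean of 1 leaves their values unchanged. Both outcomes were thus largely set by the choice of genes. Depth is unknown, so no limit for genes listed at 0 is given.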

Other observations

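Of 25 chaperone genes 2 fell in ShamF and none rose, with a median of −0.38 and 19 of 25 differences below 0. Over all genes 5.48% were called lower, and nothing is read from the count of 2. The 2 were Hspb1, a small heat shock protein (56.7 in ShamM, 25.96 in ShamF and 52.5 in CasM), and Pdia6, a disulfide isomerase of the endoplasmic reticulum (184, 126 and 141). Of 23 immediate early and stress genes in the table, 17 reached the mean, 5 of them through ShamF alone. Gadd45g had 5.26, 23.7 and 46.7, Gadd45b had 0.833, 4.11 and 10.3, and Myc had 0.813, 3.37 and 3.76, so that for these 3 genes the mean was highest in CasM. Of 18 genes known from fetal liver or liver tumours 13 reached the mean, 5 of them through ShamF alone. Of the 8 that reached it in ShamM, 4 rose and 1 fell. Prom1 had 0.283, 4.45 and 2.57, Akr1b7 had 0.05, 3.24 and 0.436, and Tff3, a secreted trefoil peptide, had 8.25, 0.363 and 0.376.

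The genes called between the sexes were spread over all autosomes. The share called higher in ShamF ran from 4.56% on chromosome 18 to 10.3% on chromosome 1, and the share called lower from 3.86% on chromosome 10 to 9.14% on chromosome 6. Of the 1420 called genes, 1 had a fold in the authors' deposited table of DESeq2 results whose sign was opposite to the centred difference of the means: Ahnak, with 3.20 in ShamM and 3.30 in ShamF, a centred difference of −0.10 and an authors' log2 fold of 0.61. It was chosen after its values were seen.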
